A study of Mus musculus with 6 samples.

Results

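Nqo1, Acsm4, Cd55, Rgmb and Kcnq1, listed as markers of the dorsal zone of the olfactory epithelium, and Ncam2, listed as the marker of the ventral zone, were followed in whole olfactory mucosa. These 6 genes were taken by symbol from the 40273 genes of the deposited table, and all 6 were measured and tested. The mucosa, the nasal lining that holds the olfactory sensory neurons, came from 6 male mice on postnatal day 30 of the mixed background 129S6;C57BL/6J. The 3 control mice were wild type for the eC element, and the 3 deletion mice lacked it. The element is a 1005 bp stretch inside the class I odorant receptor cluster of chromosome 7 (102916999 to 102918004; the design text names no build), and the series title calls it an enhancer of that receptor class. Total RNA depleted of ribosomal RNA was sequenced from each dissected mucosa as 1 library. Nothing in the labels says how much dorsal and ventral tissue each dissection held.

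The olfactory epithelium is divided along its dorsal to ventral axis. Neurons of the dorsal zone make the enzyme Nqo1 and lack the adhesion molecule Ncam2 (also called OCAM), while neurons of the other zones carry Ncam2. The choice of receptor follows the zone: class I receptors and most trace amine-associated receptors are used by dorsal neurons, and class II receptors are spread over all zones. A change in the class I share of receptor reads can therefore be read beside markers of the zone in which class I neurons lie, which is the comparison made here.

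Among the dorsal genes, Nqo1 codes for a quinone reductase of the oxidative stress response and Acsm4 (O-MACS) for a medium-chain acyl-CoA synthetase of the olfactory mucosa. Cd55 codes for decay accelerating factor, a membrane inhibitor of complement, Rgmb for a membrane-anchored co-receptor of bone morphogenetic proteins, and Kcnq1 for a voltage-gated potassium channel. On GRCm38 with GENCODE vM21, Nqo1 (ENSMUSG00000003849.8) lies on the minus strand of chromosome 8 from 107388225 to 107403206. Acsm4 (ENSMUSG00000047026.9, 119690026 to 119714565) and Kcnq1 (ENSMUSG00000009545.14, 143106362 to 143427042) lie on the plus strand of chromosome 7, the chromosome of the deleted element. Cd55 (ENSMUSG00000026399.12) lies on chromosome 1 from 130439027 to 130462744, Rgmb (ENSMUSG00000048027.7) on chromosome 17 from 15803188 to 15831039, both on the minus strand. Ncam2 (ENSMUSG00000022762.17) lies on the plus strand of chromosome 16 from 81200697 to 81626828. Kcnq1 shares exons with the antisense RNA gene Kcnq1ot1 and Cd55 with the antisense gene Gm16083. Whether reads were counted by strand is not given in the sources used here. The reads of both genes are uncertain for that reason.

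The 250 bases before the annotated start were read for the members from RefSeq (GRCm38.p6), which held windows for 5 of the 6 genes; Kcnq1 had none. Shown are Nqo1 and Acsm4, whose levels varied together across the libraries, and Ncam2, the ventral gene. The levels of Rgmb and Kcnq1 also varied together. Capitals mark matches to the searched motifs.
Nqo1 (chr8:107403206-107403455, minus strand): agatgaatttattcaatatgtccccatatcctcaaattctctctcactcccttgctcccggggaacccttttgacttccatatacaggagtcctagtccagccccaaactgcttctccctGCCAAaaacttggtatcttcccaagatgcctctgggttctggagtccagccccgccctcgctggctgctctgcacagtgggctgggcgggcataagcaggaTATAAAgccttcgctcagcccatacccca
Acsm4 (chr7:119689776-119690025, plus strand): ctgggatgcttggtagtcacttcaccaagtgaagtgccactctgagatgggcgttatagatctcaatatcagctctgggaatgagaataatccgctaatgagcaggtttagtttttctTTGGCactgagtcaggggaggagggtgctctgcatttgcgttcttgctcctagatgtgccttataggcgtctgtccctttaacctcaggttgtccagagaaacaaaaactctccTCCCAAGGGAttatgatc
Ncam2 (chr16:81200447-81200696, plus strand): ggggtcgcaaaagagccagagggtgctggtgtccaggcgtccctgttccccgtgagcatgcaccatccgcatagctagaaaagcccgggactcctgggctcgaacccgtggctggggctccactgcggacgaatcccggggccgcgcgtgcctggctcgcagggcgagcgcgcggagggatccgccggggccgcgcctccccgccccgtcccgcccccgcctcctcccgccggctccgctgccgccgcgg
The motifs, searched on both strands, were the Olf/Ebf core (TCCC and GGGA parted by 2 bases), the antioxidant response element TGACNNNGC, the homeodomain site TAATTA, the short nuclear factor I site TTGGC, the full nuclear factor I site (TTGGC and GCCAA parted by 5 bases), and the TATA box TATAAA. Every full site also counts as short sites. The Acsm4 window held the Olf/Ebf core as TCCCAAGGGA, 18 to 9 bases before the start, and 0.779% of the 32851 mouse windows of the same length held that motif. The Nqo1 window held a TATA box 29 to 24 bases before the start, as did 12.4% of all windows anywhere within them. Both windows held 1 short nuclear factor I site (GCCAA on the other strand in Nqo1), which 41.5% of all windows held. These motifs were not confined to the 2 genes: the windows of Rgmb, which has several annotated starts, also held short nuclear factor I sites. In 1 of them a TATA box lay 29 to 24 bases before the start, as in Nqo1. The same window held an antioxidant response element 190 to 182 bases before the start, a motif in 10.2% of all windows. None of the 6 searched motifs matched in the windows of Ncam2 and Cd55. The Ncam2 window was 75.2% G or C, against 53.2% for Nqo1, 47.2% for Acsm4 and a median of 52.4% over all windows.

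The 6 libraries held 30342763 to 50906277 reads assigned to genes. How many genes were detected at all split them 3 and 3, for a reason that no label gives. Set A, with 26564 to 27879 genes detected, held 1 control (replicate 1) and deletion replicates 1 and 2. Set B, with 36197 to 37456, held deletion replicate 3 beside control replicates 2 and 3. Levels below are normalized counts, which are counts after the authors' division by 1 size factor per library. Because the sets are unevenly spread over the groups, group differences are also given from a model that holds the set as a second term, or from 1 set alone. In whole tissue, fewer cells of a type and less RNA per cell cannot be told apart.

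None of the 6 zone markers differed between deletion and control libraries in the test across all genes (limma, adjusted p = 0.982 for each), in which 0.0736% of the 20368 genes tested were called. For each of the 6 genes the values of the groups overlapped, while the groups did not overlap for 7.68% of all genes tested. None of the 6 had an unadjusted p under 0.05, against 2.7% of all genes, and edgeR, DESeq2 and limma voom called none of them either. Without deletion replicate 3, 3 of the 6 (Nqo1, Acsm4 and Rgmb) had an unadjusted p under 0.05, as did 8.51% of all genes, and none had an adjusted p under 0.05. The authors' deposited table also held no member with an adjusted p-value under 0.05.

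Nqo1, the standard dorsal marker, had 9079.9, 10946 and 14993 normalized counts in control replicates 1, 2 and 3 and 7547, 8048 and 14328 in deletion replicates 1, 2 and 3. The libraries of set B were the 3 highest, whichever group they belonged to. The group means were 11673 ± 3023 and 9974 ± 3778 (SD, n = 3), and the log2 fold change was -0.26 ± 0.26 (SE) with a 95% interval from -0.86 to 0.34. With the library set as a term the log2 fold change was -0.03.

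Acsm4 had 25531, 26527 and 29738 normalized counts in control mucosae and 21240.3, 20405 and 28163 in deletion mucosae. Deletion replicates 1 and 2 lay below every control, and deletion replicate 3 lay above 2 of the 3 controls. The means of 27266 ± 2199 and 23269 ± 4258 (SD, n = 3) gave a log2 fold change of -0.24 ± 0.13 (SE; 95% interval -0.54 to 0.06). It was -0.15 with the set as a term, -0.29 among the libraries of set A, which has 1 control, and 0.0039 among those of set B, which has 1 deletion library.

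The other dorsal genes had fold changes of the opposite sign. Cd55 had 3242, 2637 and 2589 normalized counts in control mucosae and 3364, 3152 and 3018 in deletion mucosae, with a log2 fold change of 0.18 ± 0.10 (SE; 95% interval -0.05 to 0.40). Among the controls, replicate 1 alone reached into the range of the deletion libraries. Rgmb had 1239, 1110.2 and 1055 in control mucosae and 1392, 1282 and 1106 in deletion mucosae, at 0.15 ± 0.10 (SE; -0.09 to 0.39). Kcnq1 had 937, 835 and 795 in control mucosae and 1011, 901 and 823 in deletion mucosae, at 0.09 ± 0.10 (SE; -0.14 to 0.32). In all 3 genes each library of set A was above each of set B. The share of all genes whose library sets do not overlap is not given here. Separation of the sets, in these and other named genes, is therefore a description only. With the set as a term the fold changes of Cd55, Rgmb and Kcnq1 were 0.11, 0.07 and 0.02 on the log2 scale. Kcnq1ot1, the antisense partner of Kcnq1, had 2380.3 ± 245 normalized counts in control mucosae and 2597 ± 216 in deletion mucosae (SD, n = 3).

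Ncam2, the ventral gene, had 3681, 4191 and 3703 normalized counts in control mucosae and 3261, 3994 and 3706 in deletion mucosae. Its group means were 3858 ± 288 and 3653 ± 369.6 (SD, n = 3), and the log2 fold change was -0.08 ± 0.09 (SE; 95% interval -0.29 to 0.13). The lowest and the highest library were deletion replicate 1, of set A, and control replicate 2, of set B, and the other libraries of the sets overlapped. As folds, the intervals ran from 0.551 to 1.27 times the control level for Nqo1, 0.689 to 1.04 for Acsm4, 0.967 to 1.32 for Cd55, 0.938 to 1.31 for Rgmb, 0.904 to 1.25 for Kcnq1 and 0.816 to 1.10 for Ncam2. These bounds rest on all 6 libraries. Without deletion replicate 3 the 95% interval on the log2 scale ran from -0.97 to -0.14 for Nqo1, from -0.60 to -0.17 for Acsm4 and from 0.01 to 0.47 for Rgmb, and without control replicate 1 it ran from 0.10 to 0.47 for Cd55.

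**Figure D1:**
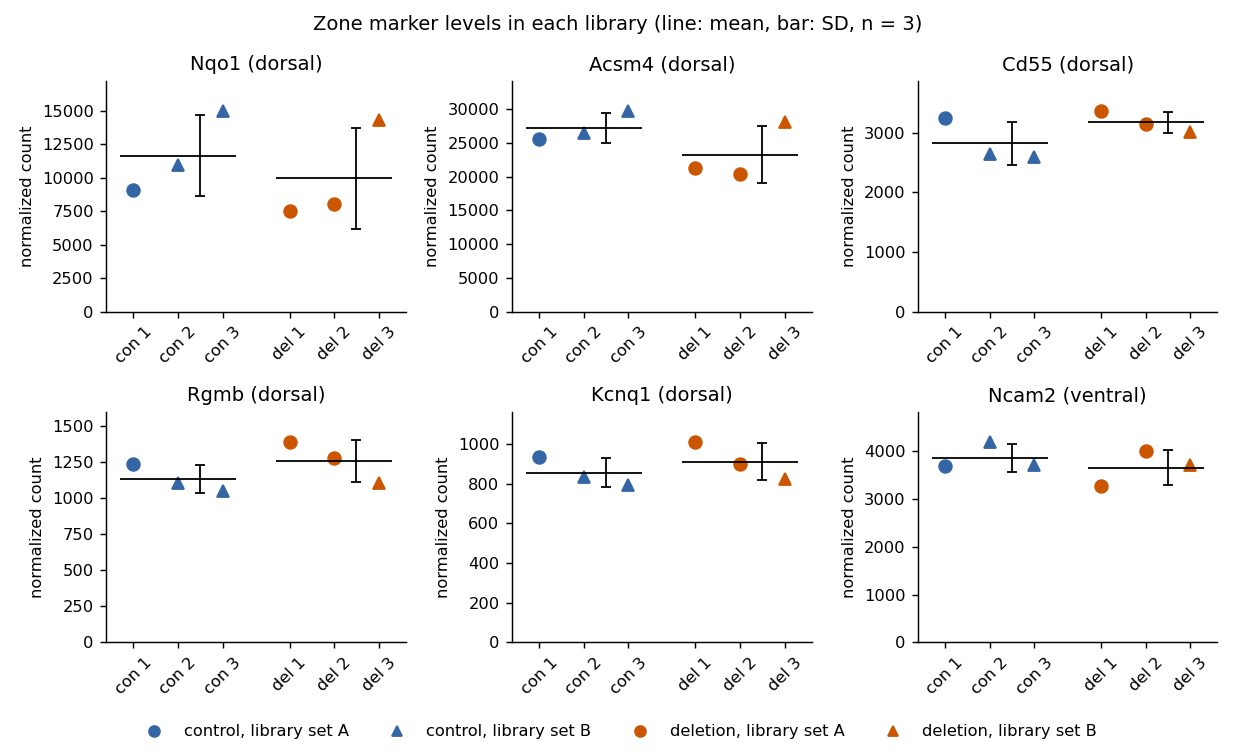
Normalized counts (y axis, from 0) of the 5 dorsal genes and Ncam2 in each of the 6 libraries (x axis), circles for library set A and triangles for set B, with the group mean and SD (n = 3). Nqo1 is highest in the 3 triangles of both groups (10946 to 14993), Cd55, Rgmb and Kcnq1 are lowest there, and no gene separates the groups.

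**Figure D2:**
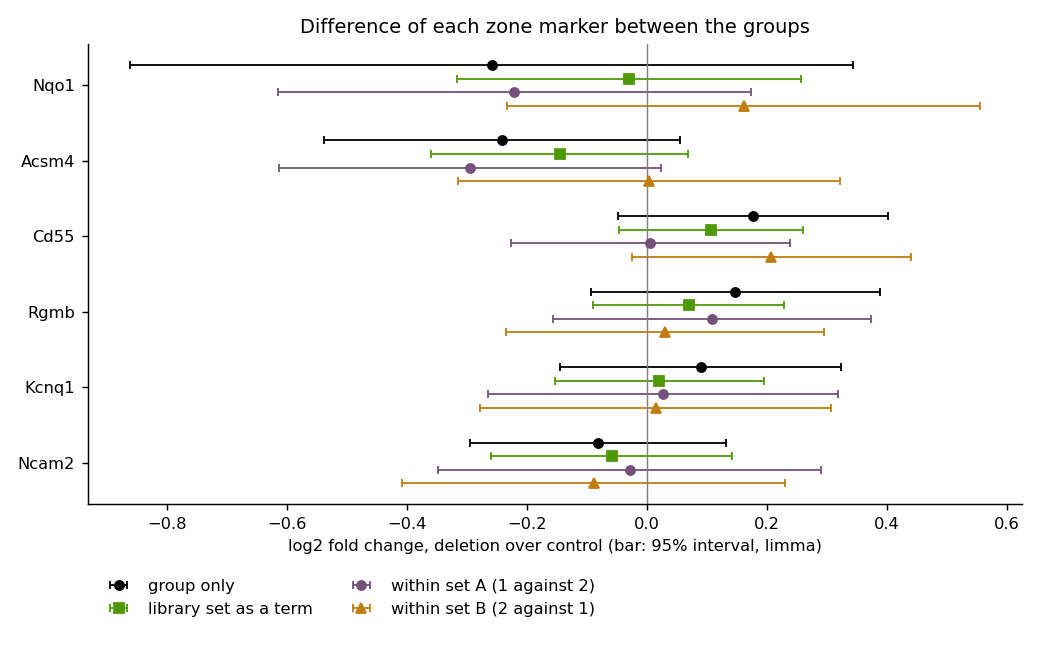
Log2 fold change of deletion over control for each zone marker (x axis) with its 95% interval, for the group alone, with the library set added, and within each set. The intervals drawn include 0, but those within a set have 1 library in 1 arm, which is assumed to vary like the others. For the group alone Nqo1 has the widest, from -0.86 to 0.34.

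Levels were compared between the genes per kilobase of exon. Acsm4 was the highest with a mean of 11741 normalized counts per kb over the 6 libraries (9482 to 13819), followed by Nqo1 with 6969.5 (4859.9 to 9654). The ranges of these 2 genes touched, but Acsm4 was above Nqo1 in each of the 6 libraries. Cd55 had 618 (533 to 693), Ncam2 331 (288 to 369.9), Kcnq1 216 (194 to 247) and Rgmb 156 (138 to 182), and no 2 of these 4 ranges overlapped. Of the dorsal genes, Acsm4, Nqo1 and Cd55 thus stood above the ventral gene per kb, and Rgmb and Kcnq1 stood below it.

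The class I share of receptor reads was set beside these levels. Class I was taken as the 139 symbols from Olfr543 to Olfr692, all of which lie in the chromosome 7 cluster, out of 1318 receptor symbols. Their share was 5.66%, 8.66% and 8.83% in control replicates 1, 2 and 3 and 3.92%, 4.58% and 8.06% in deletion replicates 1, 2 and 3. The widest Wilson 95% interval, which covers counting error only, ran from 8.67% to 8.99% in control replicate 3. It overlapped that of control replicate 2, from 8.51% to 8.82%. Beside the differences between the other libraries counting error was small. The group means were 7.72 ± 1.79% and 5.52 ± 2.22% (SD, n = 3), a difference of -2.19 percentage points (exact two-sided permutation test, p = 0.2, where 0.1 is the smallest possible). Within set A the deletion libraries had 0.752 times the share of the control, and within set B the deletion library had 0.922 times that of the controls.

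In order of the class I share, the libraries were deletion 1, deletion 2, control 1, deletion 3, control 2 and control 3. The intervals of control 2 and control 3 overlapped, so the order of these libraries is uncertain. Nqo1 followed this order except that deletion 3 and control 2 changed places. Acsm4 did the same, with deletion 1 and deletion 2 exchanged as well. Kcnq1, Rgmb and Cd55 ran the other way: deletion 1, with the lowest class I share, had the highest level of all 3, and control 3, with the highest share, had the lowest. Ncam2 was lowest in deletion 1 and highest in control 2, with no such order among the rest. No correlation coefficient is given, because the libraries formed 2 sets and neither set alone has enough libraries.

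**Figure D3:**
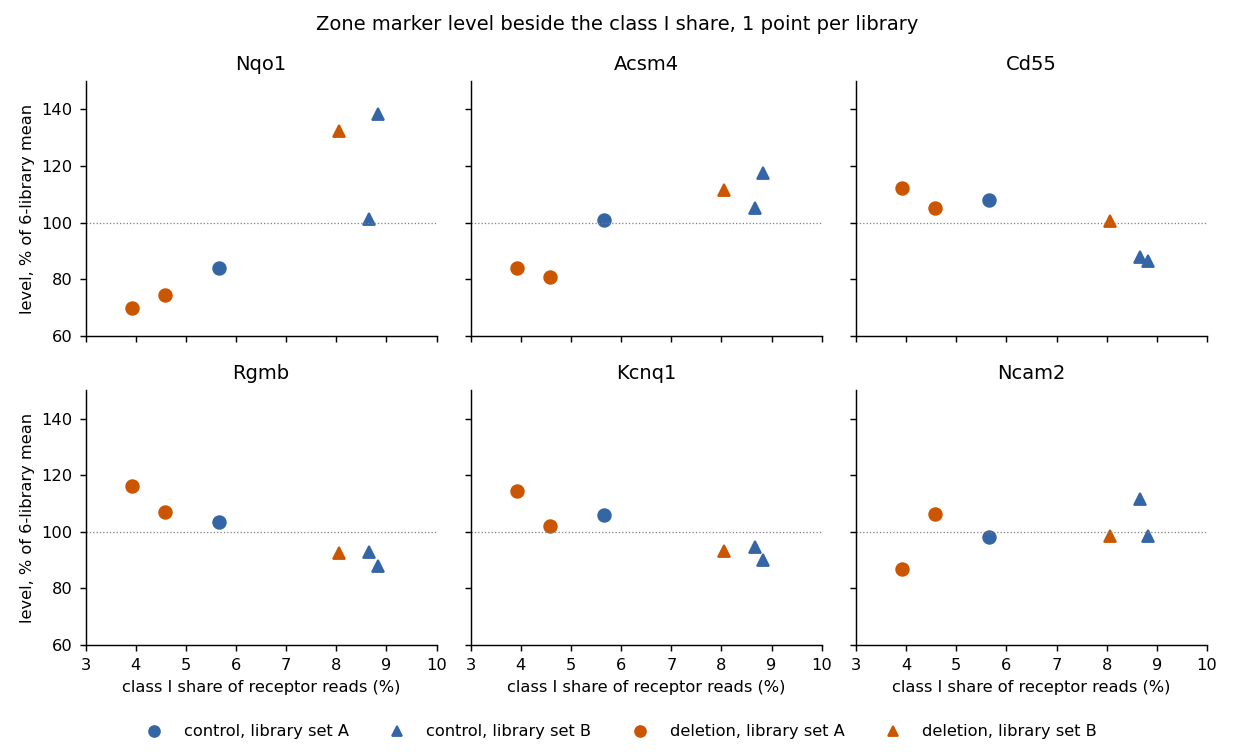
Level of each zone marker as a percent of its 6-library mean (y axis) against the class I share of receptor reads in percent (x axis), 1 point per library. Nqo1 runs from 69.7% in deletion 1 to 139% in control 3 and Acsm4 from 80.8% to 118%, while Cd55, Rgmb and Kcnq1 are highest in deletion 1 and lowest in control 3.

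The 5 dorsal genes thus did not vary as 1 group, and their zone is taken from the list and not shown by these data. Their geometric mean, which weights each gene equally, was 3874, 3717 and 3955 normalized counts in control mucosae and 3767, 3592 and 4064 in deletion mucosae. The ratio of this dorsal level to Ncam2 was 1.05, 0.887 and 1.07 in control mucosae and 1.16, 0.899 and 1.10 in deletion mucosae, and the groups overlapped in both measures. For Nqo1 alone the ratio to Ncam2 was 2.47, 2.61 and 4.05 in control mucosae and 2.31, 2.01 and 3.87 in deletion mucosae. Control 3 and deletion 3 stood apart from the others in it, and control 2 did not, although it belonged to the same set. Relative to 1000 normalized counts of Omp, the olfactory marker protein of mature neurons, Nqo1 had 60.6, 60.2 and 89.4 in control mucosae and 60.2, 53.4 and 88.0 in deletion mucosae, with the same 2 libraries high.

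Class I receptors were also expressed per dorsal marker. For each 1000 normalized counts of Nqo1 there were 695, 1115 and 797 of class I receptors in control mucosae and 481, 653 and 767 in deletion mucosae. The highest library had 2.32 times the lowest, against 3.36 times for class I receptors alone. Per Acsm4 it had 2.69 times the lowest, and per Cd55, Rgmb and Kcnq1 4.28, 4.34 and 4.18 times. Per the ventral gene Ncam2 it had 2.90 times the lowest, so a smaller spread was not particular to dorsal genes. Per 1000 of Nqo1 the means were 869 ± 219 and 634 ± 144 (SD, n = 3), and deletion 3 lay above control 1. The deletion libraries had 0.815 times the control value within set A and 0.802 times within set B. Per 1000 normalized counts of Acsm4 the values were 247, 459.9 and 402 in control mucosae and 171, 257 and 390.1 in deletion mucosae, 0.866 times the control value within set A and 0.905 times within set B. Per 1000 of Ncam2 these ratios were 0.708 and 0.966. These ratios have no test, since the denominators are the chosen genes.

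Receptors reported from one zone were read as further zone measures. The trace amine-associated receptors, a small receptor family of mainly dorsal neurons, summed to 734, 1299 and 1275 normalized counts in control mucosae and 549.8, 731 and 1230.0 in deletion mucosae. All 3 libraries of set B were above all 3 of set A. Of the 12 tested family members, 0 were called higher and 0 lower, and their median log2 fold change was -0.46, against 0.01 over all genes tested. With the set as a term their median was -0.18. Taar2, with 162 ± 26.9 and 108 ± 54.0 normalized counts, and Taar7e, with 76.5 ± 25.6 and 42.9 ± 29.6 (SD, n = 3), had the smallest p (adjusted p = 0.982 each, limma). In that model these 2 genes were at -0.43 and -0.60. How reads were divided among the similar Taar7 genes is uncertain.

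Of the class II receptors listed as dorsal, Olfr160 (M72) had 108, 220.4 and 265 normalized counts in control mucosae and 74.0, 127 and 194 in deletion mucosae. Olfr73 (mOR-EG) had 64.3, 86.1 and 95.4 against 38.8, 53.0 and 79.7. In both genes the libraries of set B were the 3 highest. Olfr151 (M71), a near-identical copy of Olfr160, had at most 3.49 normalized counts and was not tested. The ventral receptors did not follow this order. Olfr1507 (MOR28) had 3560.1, 3207 and 3833 in control mucosae and 3195, 3962 and 3202 in deletion mucosae, and Olfr17 (P2) had 211, 266 and 251 against 255, 297 and 313. None of these 4 tested receptors was called (adjusted p = 0.982 each, limma).

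**Figure D4:**
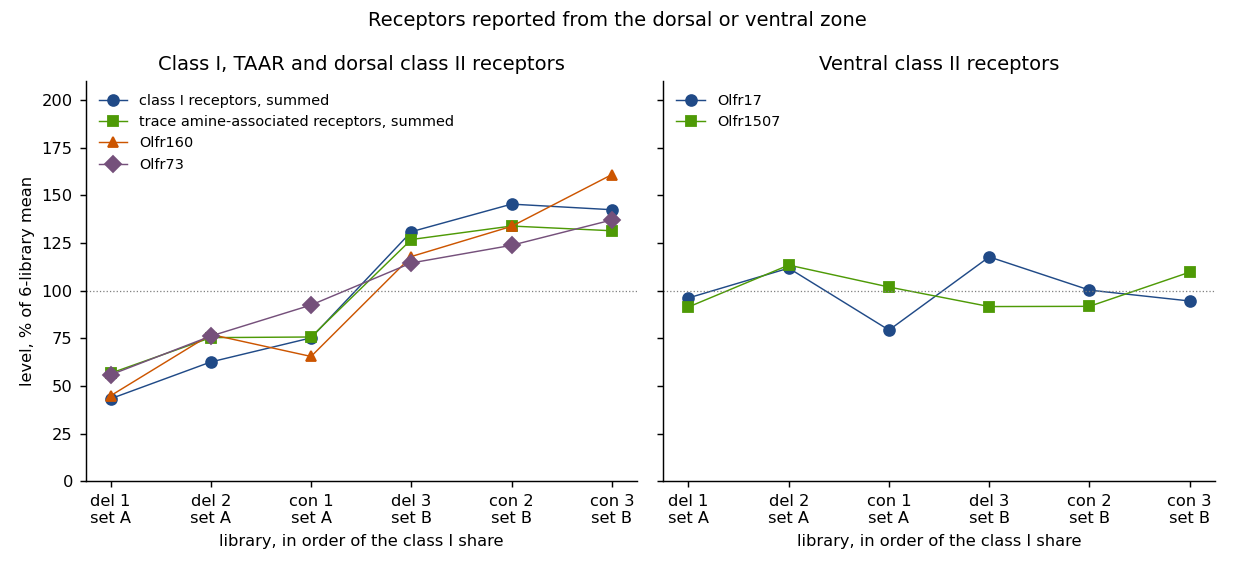
Summed class I and trace amine-associated (TAAR) receptors, Olfr160 and Olfr73 (left) and the ventral receptors Olfr17 and Olfr1507 (right), as a percent of the 6-library mean (y axis), with the libraries in order of the class I share (x axis). The left-hand receptors lie at 43.3% to 56.7% in deletion 1 and above 100% in all set B libraries, and the ventral receptors lie between 79.3% and 118% with no such order.

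Between the library sets, with the group as a term, Nqo1 was higher in set B by 0.69 ± 0.13 (SE) on the log2 scale, a difference larger in size than that of 90.3% of the genes tested. Acsm4 was higher in set B by 0.29 ± 0.09. Cd55, Rgmb and Kcnq1 were at -0.21 ± 0.07, -0.23 ± 0.07 and -0.21 ± 0.08, and Ncam2 at 0.07 ± 0.09. In size, the difference exceeded that of 71.1% of the genes tested for Acsm4, 60.4% for Cd55 and 64.2% for Rgmb. For Kcnq1 and Ncam2 these shares were 59.8% and 24.3%. The median over all genes tested was -0.02, and -0.01 over the 467 genes of the highest level class, to which Nqo1 and Acsm4 belong. Class I receptors had a median of 1.16, the trace amine-associated receptors 1.04 and class II receptors 0.36. Genes with a mean below 100 normalized counts, the range of many receptors, had a median of 0.22, with 67.3% of them above 0. The median level was 56.6 for the tested class I and 71.3 for the tested class II receptors. The filter asked for 10 normalized counts in 3 libraries, which the 3 libraries of set B alone could meet. The set medians of low genes and of all 3 receptor families can therefore be raised by the filter, and are a description only.

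Markers of cell types also differed between the sets, and their part in the zone marker differences was not tested. Of the 15 listed mature sensory neuron genes all 15 were higher in set B (median log2 difference 0.22), and their summed level was 544254 to 658064 normalized counts in control mucosae and 493080.1 to 613314 in deletion mucosae. Lower in set B were 9 of 10 sustentacular cell genes (median -0.34), 6 of 6 horizontal basal cell genes (-0.41), 8 of 8 globose basal cell genes (-0.37) and 6 of 7 Bowman's gland genes (-0.39). Sustentacular cells are the supporting cells of the epithelium, and basal cells its progenitors. The summed sustentacular genes had 186525 to 210184 in control mucosae and 182994 to 205034 in deletion mucosae, and the Bowman's gland genes 139893 to 316591 and 190518 to 243788. Between the groups, the 6 erythroid genes had a median log2 fold change of -0.46 (smallest adjusted p = 0.268, limma) and a sum of 2229.6 to 2849.7 normalized counts in the controls against 1241 to 1886. With the set as a term their median was -0.56, and Hbb-bt and Hbb-bs, near-identical beta globin genes on chromosome 7 whose reads are therefore uncertain, were called lower (adjusted p = 0.00391 and 0.00994, limma), as 0.177% of all genes were called in either direction. No other gene on the cell type lists was called between the groups in either model, and none was at 0 in all libraries. Without the set term the erythroid genes ran from -2.94 to -0.23 in log2 fold change, so they did not fall alike. Hbb-bt and Hbb-bs share chromosome 7 with the deleted element, and any part of that position in their difference was not tested. The part of red blood cells in the zone marker differences was not tested either. Omp was abundant in each library (125369.8 to 181804 normalized counts).

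**Figure D5:**
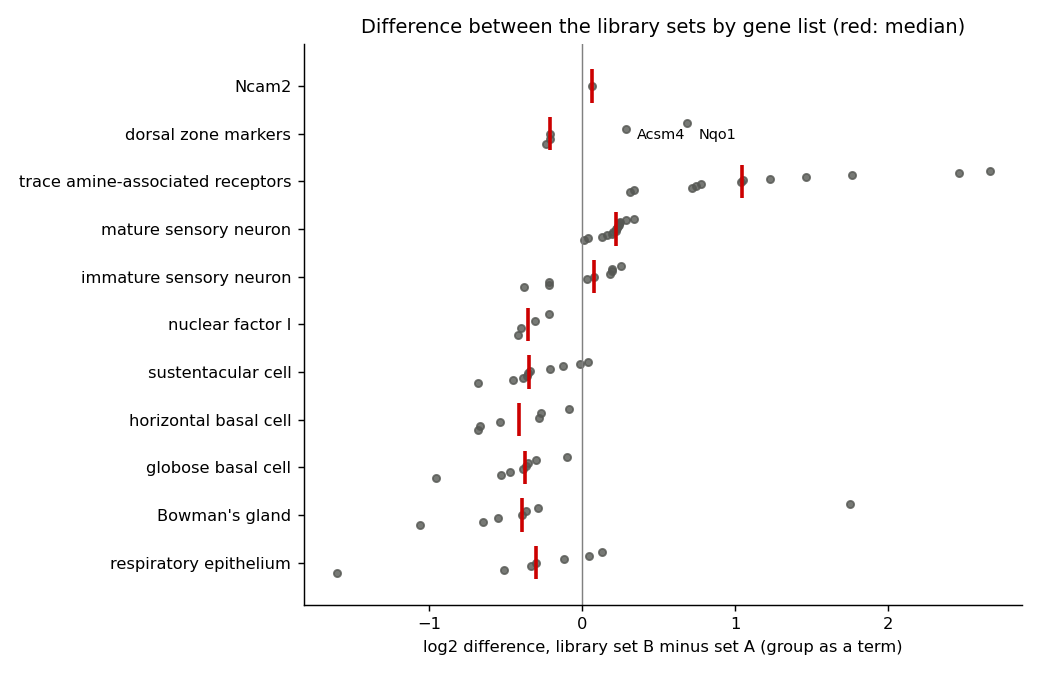
Log2 difference between library sets B and A with the group as a term (x axis), 1 point per tested gene and a red bar for the median of each list. Nqo1 and Acsm4 lie to the right with the mature neuron genes and trace amine-associated receptors, and the other dorsal genes lie to the left with the sustentacular and basal cell genes.

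Genes of the pathways around the zone markers were counted in the same fit, beside a share called of 0.0295% higher and 0.0442% lower over all genes. None passed the test in either direction on any of the following lists (limma). Of all 20368 genes tested, 10687 had a log2 fold change above 0. Zonal patterning involves axon guidance molecules such as the receptors Nrp2 and Robo2 and their ligands. Of 13 such genes, the 2 with the smallest p were Plxna1, a semaphorin co-receptor, with 7036 ± 1241 and 8549 ± 636 normalized counts, and Slit3, a ligand of Robo receptors, with 269 ± 43.7 and 332 ± 62.3 (SD, n = 3). Robo2 had 5112 ± 346 and 4719.5 ± 618 and Nrp2 6417 ± 301 and 6298 ± 524, and the list's median log2 fold change was 0.05, with 8 of 13 above 0. The 4 nuclear factor I genes, which code for transcription factors, had a median of 0.10, led by Nfix (1405 ± 283 and 1524 ± 277) and Nfic (873 ± 237 and 944 ± 147). All 4 were lower in set B, with a median of -0.35, and with the set as a term their median log2 fold change was -0.02.

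Retinoic acid is a candidate signal of zonal position in this tissue. The 18 tested genes of its synthesis, breakdown and reception had a median log2 fold change of 0.04, with 12 above 0. Rarg, a retinoic acid receptor, had 4218 ± 302 normalized counts in control mucosae and 4586 ± 271 in deletion mucosae, and Rbp4, a retinol carrier, 32.0 ± 3.07 and 41.7 ± 7.43 (SD, n = 3). Around Rgmb, the 21 tested genes of bone morphogenetic protein signalling had a median of 0.05, with 17 above 0. The ligand gene Bmp4 had 184 ± 27.1 and 244 ± 39.1 and the signal transducer Smad9 377 ± 16.7 and 337 ± 30.1 (SD, n = 3).

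Around Cd55, 10 complement genes had a median log2 fold change of 0.15. Cd46, another membrane inhibitor of complement, had 144 ± 10.5 normalized counts in control mucosae and 106 ± 11.7 in deletion mucosae. Its groups did not overlap, as for 1 of the 10 complement genes, 1 of the 18 retinoic acid genes and 7.68% of all genes tested. Cfp (properdin) had 149 ± 10.7 and 179 ± 26.5 (SD, n = 3). Both genes had an adjusted p = 0.982 (limma). Around Kcnq1, the 8 tested channel genes with Kcnq1ot1 had a median of 0.11, led by Kcne3 (141 ± 44.4 and 189.7 ± 43.9) and Kcnq3 (143 ± 13.2 and 164 ± 13.8). Around Nqo1, the 10 oxidative response genes had a median of 0.06, led by Gclc, an enzyme of glutathione synthesis (4373 ± 669 and 5063 ± 182), and Txnrd1, a thioredoxin reductase (8392 ± 1387 and 9323 ± 243). Around Ncam2, the 7 adhesion molecule genes had a median of -0.03, led by Mcam (339 ± 43.9 and 408 ± 88.4) and Nfasc (614 ± 101 and 681 ± 61.3).

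Of the relatives of Acsm4, Acsm3, a paralog on chromosome 7, had 3502, 4452 and 4902 normalized counts in control mucosae and 2732, 3123 and 5096 in deletion mucosae, again with the libraries of set B as the 3 highest (0.61 on the log2 scale, B minus A). Acsm1 was lower in set B (-0.43), and Acsm2 was low, with 1.48, 18.4 and 17.4 normalized counts in control mucosae and 1.49, 0 and 18.1 in deletion mucosae. Acsm2 reached the filter value of 10 only in the libraries of set B, on at most 16 reads a library. Its difference between the sets is therefore fixed by that filter and adds nothing to the other genes. The median log2 fold change of the 3 tested relatives was -0.27, and -0.07 with the set as a term. The same term moved the medians of the complement, axon guidance, bone morphogenetic protein, oxidative response and adhesion genes to 0.04, 0.03, 0.02, 0.02 and -0.01 and called none of their genes. The channel genes listed with Kcnq1 did not move toward 0, with a median of 0.13 against 0.11 without the term. The retinoic acid genes stayed at 0.04, and none of either list was called.

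The genes most like each marker were found by the Pearson correlation of log2 values over the 6 libraries, centred within each library set, among 13160 other genes. With so few libraries high coefficients are common, between 1.21% and 3.42% of these genes passing 0.9, so the names are a description. Nqo1 was most like Efcab10 (0.997), Snhg6 (0.997) and Apoc1 (0.996). Apoc1, an apolipoprotein, had 689, 754 and 1045 normalized counts in control mucosae and 578, 623 and 1019 in deletion mucosae. Acsm4 was most like Hsd17b10 (0.995), Gucy1b2 (0.992) and Ahcy (0.991). Gucy1b2, a guanylate cyclase subunit of a small group of olfactory neurons, had 219.6, 219 and 321 in control mucosae and 105, 94.9 and 245 in deletion mucosae.

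Cd55 was most like Nom1 (0.999), Caps2 (0.993) and the transcription factor gene Maf (0.986), and Rgmb most like Dock9 (0.998), Celf2 (0.994) and Axin2 (0.994). Axin2, a feedback inhibitor of Wnt signalling, had 741, 703 and 656 normalized counts in control mucosae and 864, 784 and 707 in deletion mucosae, with the lowest value in control 3 and the highest in deletion 1, as for Rgmb. Kcnq1 was most like Gaa (0.999), Pth1r (0.999) and Sugct (0.998), and Ncam2 most like Pck2 (0.998), Sun1 (0.997) and Ppp3cc (0.996). No gene was among the 3 most like more than 1 marker. By the same measure Nqo1 and Acsm4 had 0.73, Rgmb and Kcnq1 0.84, and Ncam2 and Omp 0.93.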

How the data were processed

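RNA from 3 control and 3 deletion mucosae was sequenced with a strand-specific kit, per the labels' protocols, and STAR 2.6.0, DESeq2 and GRCm38.p6 are named in the submitters' processing notes; which counter assigned reads, and whether by strand, is not given in the sources used here. The authors deposited 1 table of 40273 genes with a normalized value per library, a signal of counts divided by a size factor, per the file headers and values. The deposited table also holds the authors' mean, log2 fold change with its standard error, test statistic (a score), p-value and adjusted p-value, of which only the adjusted p-value of the members is used. Divided by what 1 read is worth, 100% of the nonzero values came out whole (tolerance 0.001 reads), which gave back the read counts; on these, edgeR tested 19953 genes and called 15.

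Normalized values being no raw counts, the main test was limma 3.58.1 (trend) in R 4.3.3 on log2(value + 1), which understates the change of low genes, after keeping 20368 genes that reached 10 in 3 or more libraries; p-values were Benjamini-Hochberg adjusted over all of these (threshold 0.05). The other tools were edgeR 4.0.16, DESeq2 1.42.0 and limma voom. The fits were tested on simulated counts. Library sets came from the largest gap in the number of genes with a read. The class I share used recovered reads and scipy 1.17.1. Gene identifiers were matched without their version to GENCODE vM21 (39985 found). Replicates of a group differed by more than sampling noise (chi-square per gene of at least 17.4). Of 226 listed symbols 225 were in the table; Hjv was read under its synonym Hfe2.

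The members and lists were chosen with earlier results of these data known. Named in the text are all 6 members, of each pathway list the members past the threshold and the 2 with the smallest p, the model receptors, and per member the 3 most alike genes with a mean of at least 100 and no Gm or Rik name. Other names, such as Robo2, Nrp2, Kcnq1ot1, Acsm1 and Omp, were chosen after their values were seen. P-values set a group difference against the spread between these animals. In limma that spread is moderated over all genes, and without a set term it includes the difference between the library sets.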

Additional observations from a re-analysis of the deposited data

How the results depend on the processing

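None of the 6 zone markers was called as reported or in any of 15 alternatives (other tools, pseudocount 10, no filter, replicate block, library set, leaving out each library). Cd55, Rgmb, Kcnq1 and Ncam2 kept their sign in all 15. With the replicate block and with no filter each member's log2 fold change equals the reported one by design, so its sign could not change there. Nqo1 and Acsm4 kept theirs in 14 and had log2 fold changes of 0.16 and 0.0039 within library set B; the cause was not tested. The lowest values, -0.55 for Nqo1 and -0.39 for Acsm4, came without deletion replicate 3, and the lowest adjusted p of any member in any alternative was 0.281. Unadjusted p-values under 0.05 were had by 0 of 6 members as reported, by 3 without deletion replicate 3, by 1 (Cd55) without control replicate 1 and by 4 with the replicate block, where 2214 of 20368 genes had one. The count of called genes, 15, was 40 with DESeq2, 46 with the replicate block, 36 with a library set term, 26 within set A; leaving out 1 library gave 6 to 24 (9 without control replicate 1, 6 without control replicate 2, 6 without deletion replicate 2 and 24 without deletion replicate 3). Deviations of same-numbered replicates correlated at 0.65, -0.34 and 0.66, and 4 of 6 libraries correlated best with their own number. The libraries numbered 1 share a library set, as do those numbered 3, and those numbered 2 do not. These correlations therefore cannot tell pairing from the library sets, and the replicate block partly stands in for the set. The numbers are not taken as pairs, since no label calls them so. The class I share difference of -2.19 points was below 0 in all alternatives run. It was -1.40 within set A, -0.69 within set B, and -3.46 to -1.39 with 1 library left out (-3.46 without deletion replicate 3, -1.39 without deletion replicate 1). With the replicate block it was -2.19, the same by design. The log2 ratio of the dorsal level, -0.02, was -0.19 with an arithmetic mean, which Acsm4 and Nqo1 dominate, 0.17 relative to Omp, 0.083 relative to the mature neuron genes and 0.084 within set B. The member with the fewest reads had 682 in 1 library.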
